A study of Mus musculus with 21 samples.

Results

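The subject is the 9 enzymes that build the sphingolipids and galactolipids of myelin: Sptlc1, Sptlc2, Kdsr, Cers2, Degs1, Fa2h, Ugt8a, Gal3st1 and Sgms1. They were picked by gene symbol as the enzymes that make ceramide, galactosylceramide, sulfatide and sphingomyelin, and are 9 of the 25127 genes in the expression table. Each symbol matched 1 Ensembl gene, and all 9 passed the filter on low values at both ages.

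RNA was sequenced from the whole spinal cord of 21 C57BL/6 mice in 6 groups, to follow the loss of TDP-43, the RNA-binding protein encoded by Tardbp, from cells that express the myelin gene Cnp. At postnatal day 21 (P21) there were 4 knockout mice (cKO; Cnp-Cre with Tardbp-fl/fl), 4 heterozygous mice (cHET; Cnp-Cre with Tardbp-fl/+) and 4 controls (Tardbp-fl/fl without Cre), each group with 2 females and 2 males. The P60 groups held 3 male cKO mice aged 61 to 64 days, 3 male cHET mice aged 60 to 65 days and 3 female controls aged 74 days. The cKO and cHET mice thus share the Cre allele, whereas P60 cKO mice and P60 controls differ in sex and age as well as genotype, and these cannot be told apart. Cnp-driven Cre acts in oligodendrocytes and other Cnp-expressing cells, but the RNA came from all cells of the cord. The libraries of the 2 ages were made with different kits, and the sexes in the groups differ between the ages, so that age, kit and sex cannot be told apart, and levels were compared only within an age.

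All sphingolipids start from serine and palmitoyl-CoA, which serine palmitoyltransferase joins and a reductase, a ceramide synthase and a desaturase turn into ceramide. In oligodendrocytes much of the ceramide carries a very-long-chain fatty acid that has been 2-hydroxylated, and receives a galactose to become galactosylceramide, part of which is then sulfated to sulfatide. These galactolipids are abundant in myelin and help to keep it stable and attached at the paranodes, and another share of ceramide becomes sphingomyelin.

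The promoters of Ugt8a, which adds the galactose, and Gal3st1, which adds the sulfate, are shown here because the transcripts of both fell at P21. Those of Fa2h fell as well, but Fa2h has no entry in the promoter table used. Each sequence runs from 250 bases before to 50 bases after the RefSeq start site (GRCm38.p6), 5′ to 3′ on the gene's strand. Capitals mark every match, on either strand, to GGGCGG (the GC box), CCAAT (the CCAAT box), CACGTG (the E-box), TCACNCCAC (a sterol response core) and the SOX-type cores ACAAAG and ACAATG. The Ugt8a promoter lies at chr3:125938603-125938902 on the minus strand, and that of the first of 3 Gal3st1 start sites at chr11:3983386-3983685 on the plus strand.
Ugt8a: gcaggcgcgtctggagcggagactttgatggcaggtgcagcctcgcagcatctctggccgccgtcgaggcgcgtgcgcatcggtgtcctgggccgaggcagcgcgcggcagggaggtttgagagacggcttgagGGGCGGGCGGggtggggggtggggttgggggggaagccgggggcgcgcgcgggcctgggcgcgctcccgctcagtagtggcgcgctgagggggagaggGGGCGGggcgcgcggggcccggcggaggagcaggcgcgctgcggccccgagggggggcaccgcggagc
Gal3st1: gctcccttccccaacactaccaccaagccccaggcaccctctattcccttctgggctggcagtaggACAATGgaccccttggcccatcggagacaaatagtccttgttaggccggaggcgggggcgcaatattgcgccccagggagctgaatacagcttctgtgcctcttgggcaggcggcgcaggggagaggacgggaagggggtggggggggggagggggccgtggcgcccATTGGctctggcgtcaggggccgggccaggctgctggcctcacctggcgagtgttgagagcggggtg
The Ugt8a window held 3 GC boxes, of which the first 2 overlap by 2 bases, and none of the other motifs. The Gal3st1 window held 1 ACAATG and 1 CCAAT read on the opposite strand, and no GC box. Among all 32851 promoter windows of the same length, GGGCGG was present in 35.7%, CCAAT in 37.4%, ACAATG in 12.6%, ACAAAG in 18.7%, CACGTG in 7.15% and TCACNCCAC in 1.24%. The table holds the other 8 of the 9 enzymes. TCACNCCAC was in none of their windows, and CACGTG was in 1 of the 2 Cers2 windows and in that of Degs1.

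Levels are given as scaled reads per base, which correct for transcript length and so allow different genes to be compared within an age. Tardbp, the targeted gene, stood at 1639 to 1880 in P21 cKO cords, 2030 to 2236 in cHET cords and 2155 to 2415 in control cords, and at P60 at 783 to 831 in cKO cords, 906 to 932 in cHET cords and 828 to 937 in control cords. These values sum over a whole gene, so the deleted exon cannot be seen in them. Cnp, the gene that drives Cre, was lower in cHET than in control cords by 0.85 on the log2 scale at P21 (SE 0.07, adjusted p = 9.5e-05, limma). At P60 it was lower there by 0.78 (SE 0.06, adjusted p = 1.1e-03, limma). In cKO against cHET cords Cnp changed by 0.17 at P21 (SE 0.07, adjusted p = 0.084, limma) and 0.36 at P60 (SE 0.06, adjusted p = 1.1e-03, limma). In cKO against control cords it changed by -0.68 at P21 and -0.42 at P60. Marker lists of other cells also moved at P21 in cKO against cHET cords: 4 of 5 oligodendrocyte precursor, 6 of 7 microglial and 5 of 6 astrocyte markers rose, and 5 of 6 neuronal markers fell. At P60, 5 of 5 precursor, 6 of 7 microglial and 3 of 6 astrocyte markers rose, and 4 of 6 neuronal markers and 1 microglial marker fell. Of the 5 markers of newly formed oligodendrocytes, 3 rose and 2 fell at each age; their summed level ranged from 30867 to 41360 in P21 cKO cords and 25773 to 29434 in cHET cords, and at P60 from 11433 to 11935 in cKO cords and 10090 to 10386 in cHET cords. The part of these cell types in the enzymes' changes was not tested. Of the 6 Schwann cell markers, which are of interest because Schwann cells use the same lipid enzymes, 1 rose at each age; their summed level ranged from 2065 to 2245 in P21 cKO cords and 1596 to 1907 in cHET cords, and at P60 from 980 to 1133 in cKO cords and 795 to 1771 in cHET cords. No call of an enzyme between cKO and cHET cords changed when any 1 library was left out.

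In cKO cords the transcripts of the enzymes that hydroxylate, galactosylate and sulfate myelin lipid were lower. No enzyme of the ceramide backbone passed the test against cHET cords with the values as deposited and the main filter on low values. With a stricter filter Kdsr passed at P60 (log2 change -0.23, adjusted p = 0.049, limma). At P21, Ugt8a stood at 44.9% of its cHET level, Fa2h at 53.4% and Gal3st1 at 70.0%. At P60, Fa2h stood at 35.4%, Ugt8a at 54.8% and Gal3st1 at 79.3%. The same 3 of 9 enzymes fell at both ages and none rose, with a median log2 change of -0.11 at P21 and -0.23 at P60 over the 9, against -0.01 and 0.00 over all genes tested. Changes were tested with limma on log2(value + 0.5), with Benjamini-Hochberg adjustment over all genes and a threshold of 0.05. Under that test 22.6% of 17989 genes differed between cKO and cHET cords at P21 (9.97% fell and 12.6% rose), and 25.0% of 16833 at P60 (11.5% fell and 13.4% rose). Beside these falls, 6 of 10 oligodendrocyte markers fell and 2 rose at P21, and 8 fell and 2 rose at P60. In bulk tissue, fewer oligodendrocytes and less RNA per oligodendrocyte cannot be told apart.

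**Figure D1:**
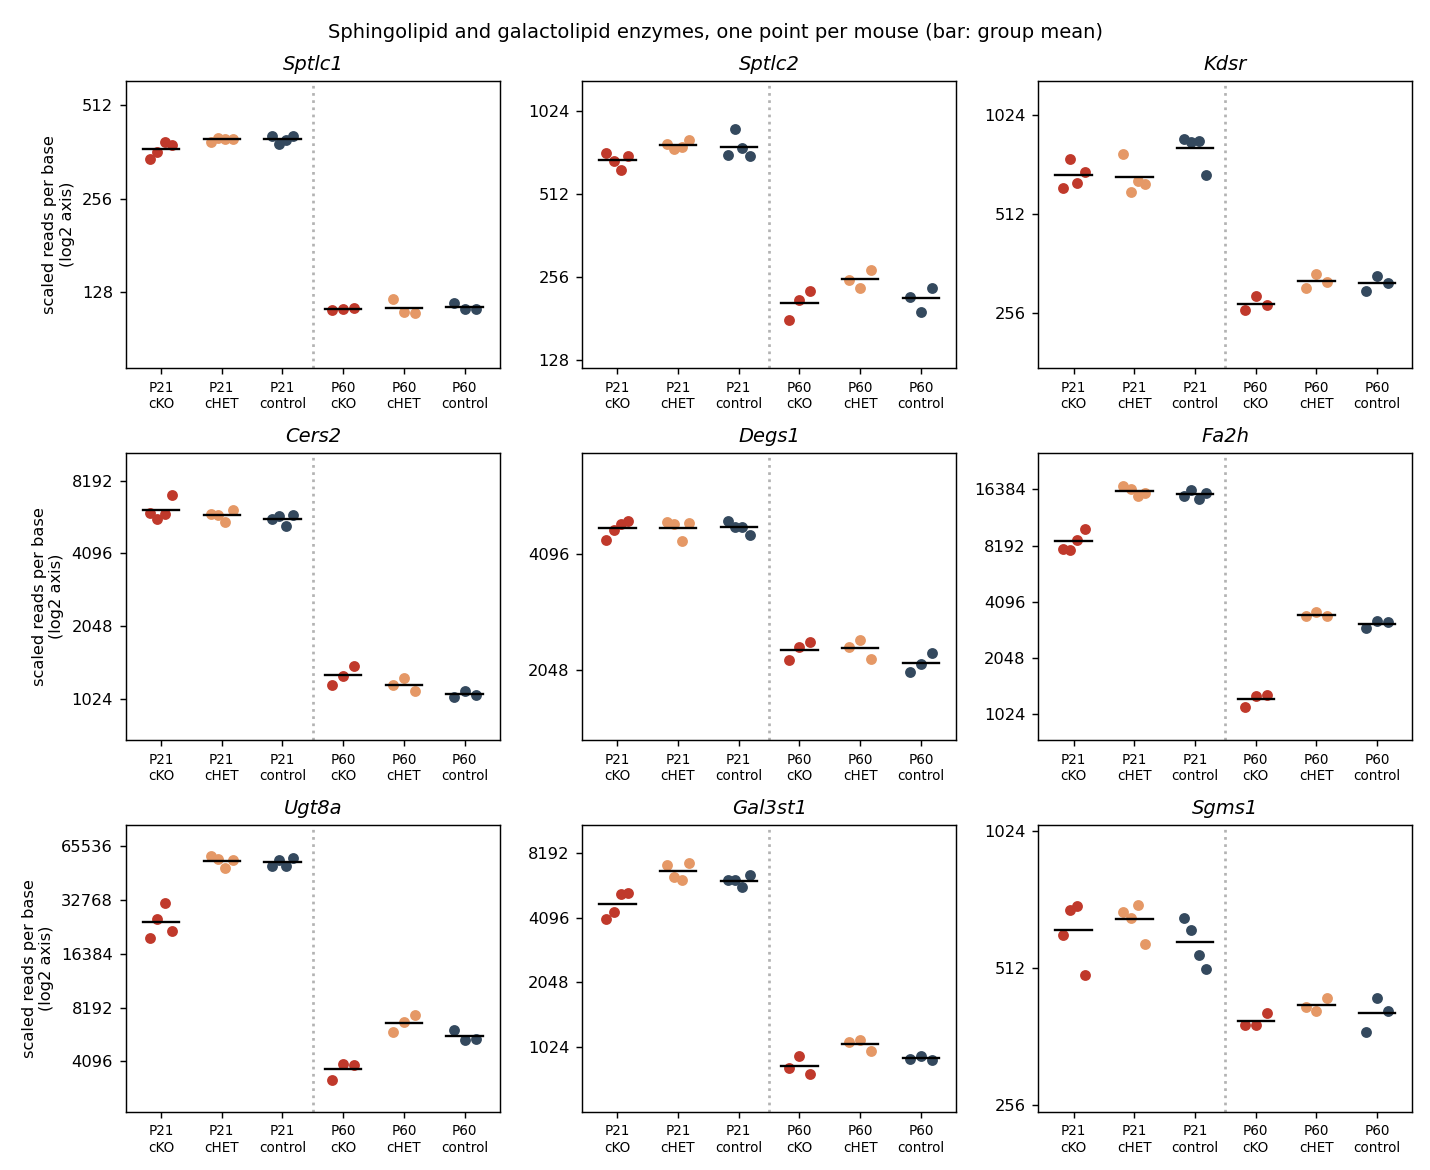
Level of each of the 9 enzymes in every library (scaled reads per base on a log2 axis, a panel per gene), with cKO left of cHET and control within each age; bars mark the group means. Ugt8a and Fa2h in cKO libraries lie below all cHET and control libraries of the same age, whereas the Degs1 values of the 3 genotypes overlap at both ages.

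The first step is the joining of serine and palmitoyl-CoA by Sptlc1 and Sptlc2, the core subunits of serine palmitoyltransferase. Sptlc1 had the lowest level of the 9 enzymes in every group, at 343 to 390 in P21 cKO cords, 389 to 401 in cHET cords and 384 to 408 in control cords. Its log2 change in cKO against cHET cords was -0.11 (95% interval -0.26 to 0.04) at P21 and -0.01 (-0.23 to 0.21) at P60; with quantile normalization the P21 change was called (-0.19, adjusted p = 0.047, limma). Sptlc2, the catalytic partner, read 719, 672, 627 and 703 in P21 cKO cords and 777, 748, 757 and 804 in cHET cords. These 2 groups did not overlap, but the change of -0.18 ± 0.08 (SE) missed the threshold (adjusted p = 0.11, limma), and the controls spread from 703 to 879. At P60, Sptlc2 was again lower in all 3 cKO cords, with 179, 211 and 227 in cKO cords against 248, 233 and 271 in cHET cords (log2 change -0.29 ± 0.12, adjusted p = 0.096, limma; 0.047 with quantile normalization); the controls, at 216, 191 and 234, overlapped the cKO cords.

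Kdsr reduces the product of that step to sphinganine. It did not differ between cKO and cHET cords at P21 beyond their spread, with 615 to 756 in cKO cords, 598 to 778 in cHET cords and 674 to 867 in control cords. At P60 it stood at 262, 288 and 272 in cKO cords, against 306, 337 and 319 in cHET cords and 299, 333 and 316 in control cords. The 3 P60 cKO cords were the lowest 3 of the 9, and the log2 changes were -0.23 ± 0.08 against cHET (adjusted p = 0.060, limma) and -0.21 ± 0.08 against control (adjusted p = 0.083). Those calls turn on the processing: the first passed with a stricter filter on low values (adjusted p = 0.049) and with another scaling (0.045).

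Cers2 is the ceramide synthase for very-long-chain fatty acids, the kind that predominates in myelin. Its P21 levels were 5697 to 7135 in cKO cords, 5550 to 6181 in cHET cords and 5335 to 5901 in control cords, and it did not pass the test against either (log2 change 0.07 ± 0.07 against cHET, adjusted p = 0.54, limma). At P60 it read 1162, 1275 and 1391 in cKO cords, 1162, 1247 and 1099 in cHET cords, and 1034, 1105 and 1059 in control cords. All 3 cKO cords were above the controls and overlapped the cHET cords. Cers2 was the only one of the 9 enzymes that rose in any comparison, by 0.26 ± 0.08 against P60 controls (adjusted p = 0.030, limma), and that call was lost without cKO replicate 2 (adjusted p = 0.078) or 3 (0.10), or without control replicate 1 (0.082) or 3 (0.082). Overlapping genes are annotated on the opposite strand at the Cers2 locus (Setdb1 and an antisense transcript), at Sptlc2 and at Sgms1, and how strand was used in counting is not given in the sources used here.

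Degs1 inserts the double bond that makes ceramide. It had the smallest log2 change of the 9 in cKO against cHET cords at P21, with means of 4767 ± 239 in cKO cords, 4792 ± 251 in cHET cords and 4796 ± 161 in control cords (SD, n = 4 each). At P60 the means were 2311 ± 126 in cKO cords, 2329 ± 133 in cHET cords and 2138 ± 126 in control cords (SD, n = 3 each). The log2 change against cHET was -0.01 at both ages, with a 95% interval from -0.12 to 0.11 at P21 and from -0.16 to 0.14 at P60, so falls of the size seen for Ugt8a or Fa2h lie outside them.

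Fa2h, the fatty acid 2-hydroxylase (chromosome 8, 111345135 to 111393824, GRCm38), supplies the hydroxylated fatty acids of galactosylceramide. At P21 its level was 7885, 7728, 8825 and 10053 in cKO cords, against 17130, 16427, 15124 and 15682 in cHET cords and 15147, 16259, 14544 and 15632 in control cords. At P60 it was 1121, 1286 and 1303 in cKO cords, 3433, 3616 and 3424 in cHET cords, and 2966, 3219 and 3204 in control cords. No cKO cord reached any cHET or control cord of its age. The log2 change against cHET was -0.91 ± 0.08 at P21 (adjusted p = 7.5e-07, limma) and -1.50 ± 0.07 at P60 (adjusted p = 1.1e-07). Against control it was -0.84 ± 0.08 and -1.34 ± 0.07.

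Ugt8a, which transfers galactose to ceramide (chromosome 3, 125865271 to 125938619), had the highest level of the 9 enzymes in all 6 groups. At P21 it read 19955, 25665, 31372 and 21890 in cKO cords, 57573, 55587, 49399 and 54977 in cHET cords, and 50971, 54616, 50718 and 55934 in control cords. The cKO cords lay far below both other groups, and the 2 males among them (replicates 2 and 3) lay above the 2 females; with sex as a covariate the fall remained called. At P60 the levels were 3218, 3985 and 3914 in cKO cords, 6011, 6820 and 7441 in cHET cords, and 6103, 5393 and 5492 in control cords, again without overlap between the cKO cords and the others. The log2 change against cHET was -1.16 ± 0.11 at P21 (adjusted p = 2.3e-06, limma) and -0.87 ± 0.10 at P60 (adjusted p = 8.0e-05), and against control -1.12 ± 0.11 and -0.62 ± 0.10.

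Gal3st1 sulfates galactosylceramide to sulfatide (chromosome 11, 3983636 to 3999326). At P21 it stood at 4058, 4336, 5295 and 5303 in cKO cords, 7220, 6351, 6099 and 7382 in cHET cords, and 6096, 6109, 5661 and 6482 in control cords. The cKO cords did not overlap either group, and the fall was -0.52 ± 0.09 against cHET (adjusted p = 8.1e-04, limma) and -0.37 ± 0.09 against control (adjusted p = 7.9e-03). At P60 it read 818, 935 and 771 in cKO cords, 1085, 1110 and 981 in cHET cords, and 905, 930 and 891 in control cords. Here the cKO cords were all below the cHET cords (-0.33 ± 0.08, adjusted p = 0.010, limma) but overlapped the controls, and the change against control was -0.12 ± 0.08 (adjusted p = 0.33).

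Sgms1 diverts ceramide to sphingomyelin instead of galactolipid. It read 603, 686, 700 and 493 in P21 cKO cords, 680, 659, 704 and 576 in cHET cords and 660, 621, 547 and 509 in control cords, and at P60 384, 383 and 407 in cKO cords, against 420, 412 and 440 in cHET cords and 371, 440 and 411 in control cords. The P21 groups overlapped throughout, and the 3 P60 cKO cords lay just below the 3 cHET cords and among the controls. Its log2 change against cHET was -0.09 (95% interval -0.34 to 0.16) at P21 and -0.12 (-0.29 to 0.06) at P60. Counting any such separation, 4 of 9 enzymes at P21 and 6 of 9 at P60 were lower in every cKO than in every cHET cord, where 9.87% and 18.9% of all genes tested were; none was higher in every cKO cord.

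**Figure D2:**
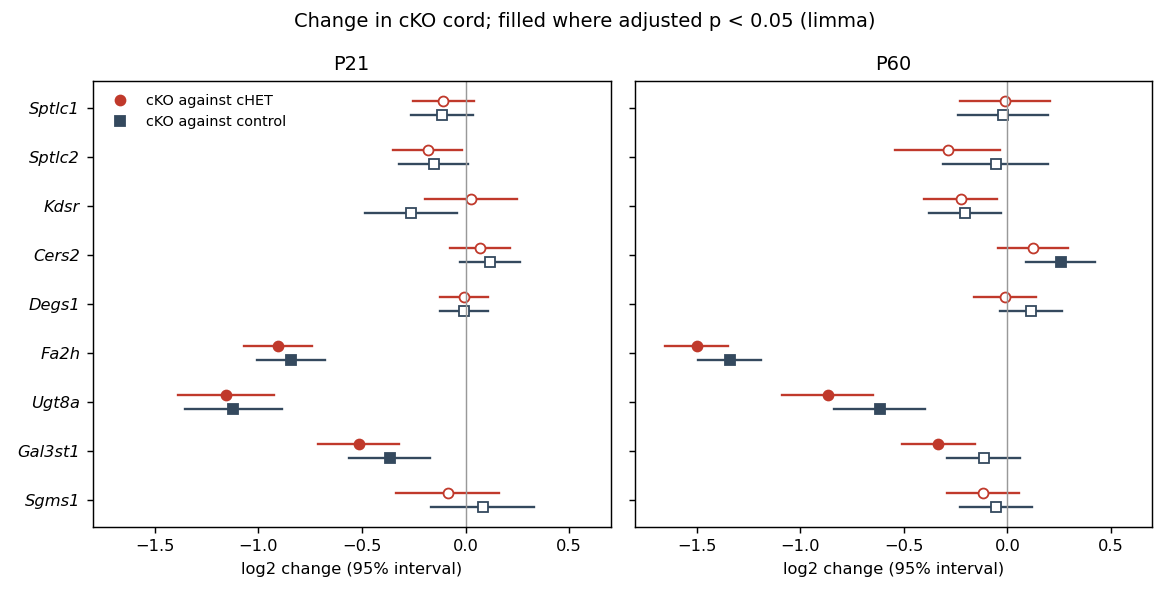
Log2 change of each enzyme with its 95% interval, for cKO against cHET (red circles) and cKO against control (dark squares), at P21 and P60; filled points passed an adjusted p of 0.05. The intervals of Ugt8a and Fa2h lie below 0 in all cKO comparisons, those of Degs1 span 0, and Cers2 against control at P60 is the one filled point above 0.

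Setting cKO against the Cre-negative controls gave the same list as against cHET at P21, but not at P60. At P21 the 3 enzymes Ugt8a, Fa2h and Gal3st1 fell and none rose (median log2 change of the 9 -0.16), where 26.9% of all genes differed (12.3% fell and 14.6% rose). At P60 Ugt8a and Fa2h fell and Cers2 rose (median -0.06), where 25.9% of all genes differed (11.4% fell and 14.5% rose). Because both contrasts use the same cKO libraries, they are not independent.

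Between cHET and control cords none of the 9 enzymes passed the test at either age, nor under any other setting tried, where 0.0111% of genes did at P21 and 0.0178% at P60 (limma). At an unadjusted p under 0.05, 1284 of 17989 genes passed at P21 and 912 of 16833 at P60 (limma). Kdsr was among them at P21, lower in cHET cords (log2 change -0.29 ± 0.10, unadjusted p = 0.013, limma). At P60 they included Ugt8a (0.25 ± 0.10, unadjusted p = 0.028, limma), Gal3st1 (0.019) and Fa2h (0.042), each higher in cHET cords. Fa2h, at 3424 to 3616 in P60 cHET cords against 2966 to 3219 in controls, and Gal3st1, at 981 to 1110 in P60 cHET cords against 891 to 930 in controls, were higher in every P60 cHET cord, where 6.17% of all genes were. Their log2 changes were 0.16 ± 0.07 and 0.22 ± 0.08, with adjusted p = 0.92 and 0.89 (limma). Of the 10 oligodendrocyte markers, 6 were also higher in every P60 cHET than in every control cord, and 0 passed the test (limma). The median log2 change of the 10 was 0.18, against 0.01 over all genes. P60 cHET and control cords also differ in sex and age.

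The fall of Fa2h differed between the ages. Its change at P60 minus that at P21 was -0.59 ± 0.11 for cKO against cHET (adjusted p = 2.4e-03, limma interaction) and -0.50 ± 0.11 for cKO against control (adjusted p = 8.6e-03), a larger fall at P60. Fa2h was the 1 of 9 enzymes called in each of these contrasts, where 3.20% and 4.48% of 16570 genes were called. For Ugt8a the difference had the opposite sign and missed the threshold, with 0.29 ± 0.16 (adjusted p = 0.44) and 0.51 ± 0.16 (adjusted p = 0.089); the second value was 0.63 with an adjusted p of 7.7e-03 without P21 cKO replicate 3, the cKO cord with the highest Ugt8a. For Gal3st1 the difference between the ages was 0.18 ± 0.13 (adjusted p = 0.59) and 0.25 ± 0.13 (adjusted p = 0.34). An age difference like that of Fa2h was also seen among the 10 oligodendrocyte markers. Against cHET, 4 of them were called with a negative difference and 2 with a positive one (median of the 10 -0.37, limma interaction). Against control, 3 were negative and 2 positive (median -0.33).

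The order of the enzymes by level also differed between the groups. In all P21 groups and in P60 cHET and control cords, Fa2h ranked second after Ugt8a; in P60 cKO cords its mean of 1237 ± 101 came behind Ugt8a, Degs1 (2311 ± 126) and Cers2 (1276 ± 115; SD, n = 3 each), and its range overlapped that of Cers2. Gal3st1 and Cers2 overlapped as neighbours in P21 cHET and P21 control cords, whereas in P21 cKO cords Gal3st1 came below Cers2 without overlap, at 4058 to 5303, next to Degs1 at 4451 to 4990. Sptlc2, Kdsr and Sgms1 filled the places above Sptlc1 in every group; at P21 Sptlc2 and Kdsr overlapped in all 3 genotypes, while at P60 Sgms1 stood first among them in every genotype, without overlap with Kdsr.

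Within a library, ratios between enzymes do not depend on the scaling of that library. The Gal3st1 to Ugt8a ratio was 0.203, 0.169, 0.169 and 0.242 in P21 cKO cords, against 0.125, 0.114, 0.123 and 0.134 in cHET cords and 0.120, 0.112, 0.112 and 0.116 in control cords. At P60 it was 0.254, 0.235 and 0.197 in cKO cords, 0.181, 0.163 and 0.132 in cHET cords, and 0.148, 0.172 and 0.162 in control cords. The ratio was higher in every cKO cord at both ages, by 1.56-fold against cHET at P21 (exact two-sided permutation p = 0.0286, the smallest that 4 against 4 allows) and 1.45-fold at P60 (exact permutation p = 0.10, the smallest that 3 against 3 allows). The Fa2h to Ugt8a ratio overlapped at P21, at 0.281 to 0.459 in cKO cords and 0.285 to 0.306 in cHET cords (exact permutation p = 0.31). At P60 it was lower in every cKO cord, with 0.348, 0.323 and 0.333 in cKO cords against 0.571, 0.530 and 0.460 in cHET cords and 0.486, 0.597 and 0.583 in control cords (exact permutation p = 0.10 against either). In 20 such ratio tests, adjusted together, no adjusted p was below 0.0816. With these group sizes no adjusted p could have fallen below 0.05, so the adjusted values cannot decide whether a ratio changed.

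**Figure D3:**
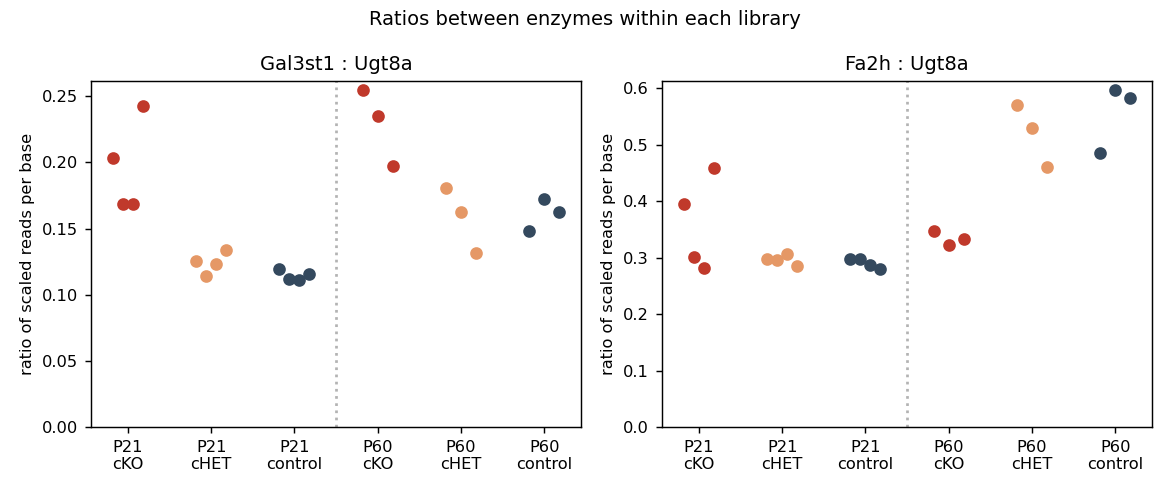
Ratio of Gal3st1 to Ugt8a (left) and of Fa2h to Ugt8a (right) in every library, with cKO left of cHET and control at each age (linear axes from 0). The Gal3st1 ratio of each cKO library exceeds those of all cHET and control libraries of its age, and the Fa2h ratio is separated at P60 but not at P21.

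The oligodendrocyte markers give a measure to set the enzymes beside. Mbp, the myelin gene with the highest level among them, fell by 0.42 at P21 and by 0.66 at P60 on the log2 scale in cKO against cHET cords (adjusted p = 5.0e-03 and 7.9e-04, limma). Among the others, named after their values were seen, Ermn fell by 1.72 at P60, while Opalin rose by 1.51 and Cldn11 by 0.78. The summed level of the 10 markers ranged from 1776246 to 2091743 in P21 cKO cords, 2326218 to 2605183 in cHET cords and 2072285 to 2370343 in control cords. At P60 it ranged from 306015 to 362076 in cKO cords, 510532 to 589349 in cHET cords and 425052 to 474646 in control cords, and no marker was at 0 throughout a group.

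Relative to the mean log2 level of those 10 markers in the same library, Ugt8a and Fa2h were lower. That mean includes Opalin and Cldn11, which rose at P60. Ratios to only the markers that fell were not tested. Ugt8a relative to the markers was 0.568 to 0.862 in P21 cKO cords against 1.20 to 1.32 in cHET cords, and at P60 0.425 to 0.508 in cKO cords against 0.572 to 0.659 in cHET cords. Fa2h relative to the markers was 0.230 to 0.261 in P21 cKO cords against 0.344 to 0.394 in cHET cords, and at P60 0.148 to 0.164 in cKO cords against 0.303 to 0.327 in cHET cords. Neither overlapped at either age, with exact permutation p = 0.0286 at P21 and 0.10 at P60. Adjusted over the 20 ratio tests, these exact permutation p-values were 0.0816 and 0.125. Gal3st1 relative to the markers was 0.122 to 0.145 in P21 cKO cords and 0.143 to 0.166 in cHET cords (exact permutation p = 0.057), and at P60 0.0883 to 0.119 in cKO cords and 0.0870 to 0.103 in cHET cords (exact permutation p = 0.40), so that its ranges overlapped cHET at both ages. Against the P21 controls, at 0.146 to 0.159, every cKO cord was lower (exact permutation p = 0.0286), and against the P60 controls, at 0.0914 to 0.0938, the ranges overlapped (exact permutation p = 0.40).

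**Figure D4:**
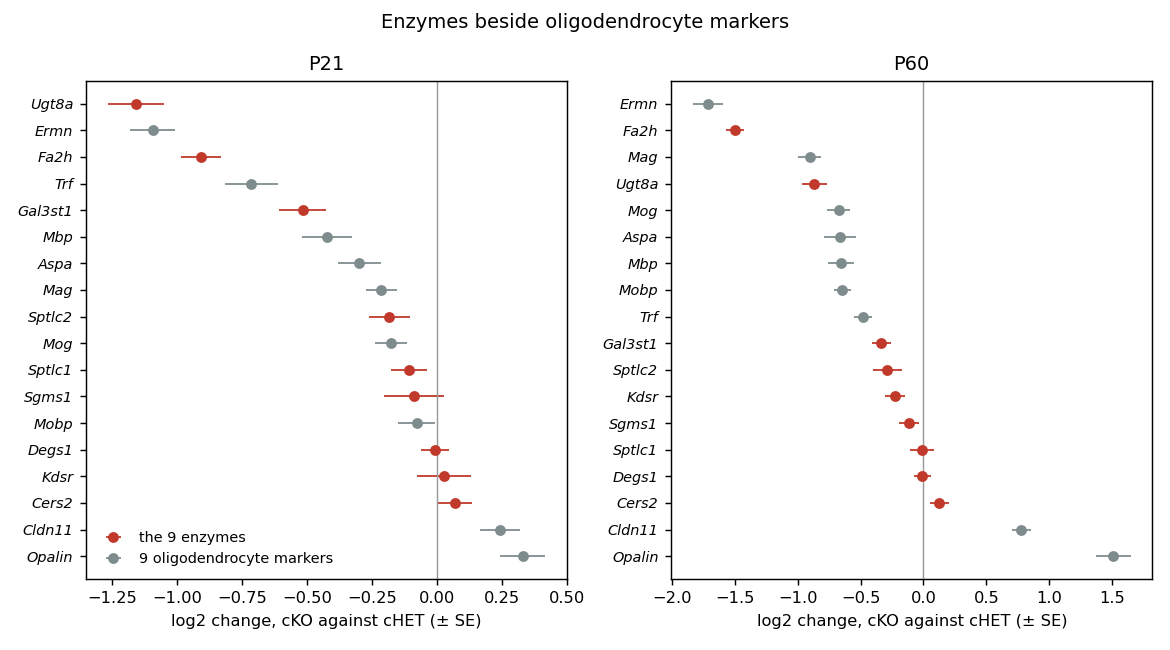
Log2 change in cKO against cHET cords (± SE) for the 9 enzymes (red) and 9 of the 10 oligodendrocyte markers (grey), ordered by size at P21 and at P60. Fa2h and Ugt8a lie among the lowest markers such as Ermn, the ceramide backbone enzymes lie between -0.18 and 0.07 at P21 and between -0.29 and 0.12 at P60, and Opalin and Cldn11 lie above 0.

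The genes of sphingolipid metabolism around these 9 enzymes moved in both directions. Of 66 further genes in 8 lists, 17 rose and 10 fell in cKO against cHET cords at P21, and 16 rose and 11 fell at P60 (limma). The counts of each list stand beside the same shares over all genes as above: 12.6% rose and 9.97% fell at P21, and 13.4% rose and 11.5% fell at P60. Among the 18 genes of sphingolipid breakdown, 10 rose and none fell at P21, and 8 rose and none fell at P60. Hexa, a subunit of a lysosomal hexosaminidase, averaged 4790 ± 1222 in P21 cKO cords and 1883 ± 128 in cHET cords (SD, n = 4 each) and rose by 1.31 ± 0.13, the ganglioside activator Gm2a by 0.72 ± 0.06 and the galactosidase Glb1 by 0.73 ± 0.07. At P60 Hexa rose by 1.56 ± 0.11. The summed level of the 7 microglial markers, of which 6 rose at both ages and 1, Tmem119, fell at P60 (50.8 ± 12.6 in cKO cords and 171 ± 20.4 in cHET cords; SD, n = 3 each; named after its value was seen), ranged from 28887 to 39779 in P21 cKO cords and 7909 to 9188 in cHET cords, and at P60 from 13683 to 17774 in cKO cords and 4203 to 4394 in cHET cords; their part in these changes was not tested. The enzymes that degrade galactosylceramide and sulfatide themselves, picked here for that role after their values were seen, had smaller changes: Galc had log2 changes of 0.18 ± 0.07 at P21 (adjusted p = 0.082, limma) and 0.48 ± 0.07 at P60 (adjusted p = 3.8e-04), and Arsa 0.17 ± 0.06 (0.071) and -0.20 ± 0.10 (0.18).

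Of 7 genes that supply UDP-galactose and activated sulfate, the donors used by Ugt8a and Gal3st1, 2 rose at P21 and 4 at P60, and none fell. Papss2, which makes the sulfate donor, averaged 1475 ± 15.5 in P21 cKO cords and 691 ± 34.0 in cHET cords (SD, n = 4 each; log2 change 1.09 ± 0.07, adjusted p = 2.6e-08, limma), and rose by 1.17 ± 0.07 at P60. Slc35b2, a Golgi transporter of that donor, rose by 0.33 ± 0.07 and 0.61 ± 0.09, but its P21 per-library values differ from the means in the authors' deposited table, which gives 0.31 with q = 0.59 at P21. The authors' results hold no P60 value for Slc35b2, so its P60 rise could not be compared. The counts of rising donor genes at both ages include Slc35b2. Among the 9 other ceramide synthases, desaturase and elongases, the elongase Elovl7 fell by 0.78 ± 0.06 at P21 and 0.89 ± 0.08 at P60; its values in the 2 deposited files also differ, and the authors' deposited table gives falls of 1.06 and 1.13. In that list Cers3, a low-abundance ceramide synthase at 39.6 ± 16.3 in P21 cKO cords and 17.6 ± 4.42 in cHET cords, rose by 1.09 ± 0.32 at P21, and the neuronal ceramide synthase Cers1 by 0.33 ± 0.07 at P60. Of the 6 subunits and regulators of serine palmitoyltransferase, Ormdl3, an inhibitory regulator, rose by 0.24 ± 0.07 at P21, and none passed at P60.

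The transfer proteins Gltp, for glycolipids, and Col4a3bp, which carries ceramide to the Golgi for sphingomyelin synthesis, were the 2 of 5 genes that fell in their list against cHET at both ages, by 0.27 ± 0.06 and 0.26 ± 0.07 at P21 and by 0.35 ± 0.08 and 0.48 ± 0.11 at P60. Against control, 2 of the 5 genes in that list fell at P21 and none passed at P60 (limma). Those counts are over the list, and the 2 need not be Gltp and Col4a3bp. Gltp averaged 4724 ± 312 in P21 cKO cords, 5694 ± 327 in cHET cords and 5191 ± 292 in control cords (SD, n = 4 each). Col4a3bp averaged 2412 ± 215, 2888 ± 206 and 3020 ± 84.4 in the same groups. Of 8 genes of glucosylceramide and ganglioside synthesis, 3 fell at P21 and 2 at P60, and none rose. They were St3gal5, the GM3 synthase, by 0.44 ± 0.07 and 0.41 ± 0.06, the lactosylceramide synthase B4galt6 by 0.26 ± 0.05 and 0.18 ± 0.06, and at P21 the GD3 synthase St8sia1 by 0.37 ± 0.12. Among 10 genes of sphingosine 1-phosphate, 3 rose and 3 fell at P21, and 3 rose and 4 fell at P60. The oligodendrocyte receptor S1pr5 averaged 1896 ± 80.8 in P21 cKO cords and 3786 ± 230 in cHET cords (SD, n = 4 each), and at P60 307 ± 36.8 in cKO cords and 1223 ± 40.6 in cHET cords (SD, n = 3 each), and fell at both ages (adjusted p = 3.4e-07 and 8.4e-08, limma). In the same list the receptor S1pr3 rose by 2.05 ± 0.10 at P21, the lyase Sgpl1 by 0.83 ± 0.09 and 1.15 ± 0.09, and the phosphatase Sgpp1 fell by 0.36 ± 0.05 at P21. Of 3 galactolipid-binding proteins, the myelin proteolipid Mal fell against cHET, by 0.53 ± 0.10 and 0.34 ± 0.09. At P60 Mal averaged 7517 ± 798 in cKO cords and 7497 ± 451 in control cords (SD, n = 3 each). None of the 3 passed against control at P60 (limma).

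**Figure D5:**
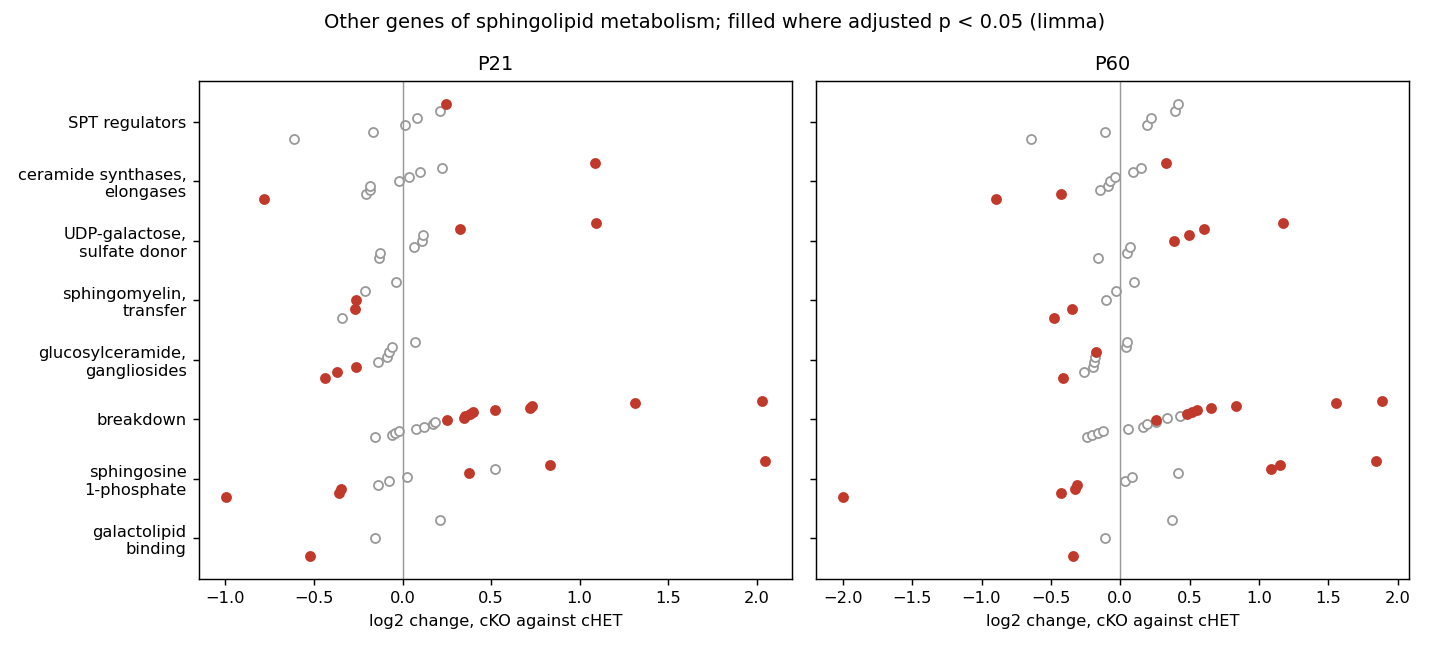
Log2 change in cKO against cHET cords of the 66 further genes of sphingolipid metabolism, by list, at P21 and P60; each point is a gene, filled red where the adjusted p was below 0.05. The breakdown genes that passed lie to the right of 0 at both ages, with Hexa at 1.31 and 1.56, and the ganglioside and transfer genes that passed lie to the left.

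Across the 4 log2 changes against control (cHET and cKO at both ages), the pattern nearest to that of Fa2h among 12262 genes was Dhcr7, an enzyme of cholesterol synthesis, with a root mean square difference of 0.013. Dhcr7 changed by -0.83 in P21 and -1.33 in P60 cKO cords, close to the -0.84 and -1.34 of Fa2h. The next were Syne3 (0.075) and Enpp1 (0.081). Nearest to Ugt8a were Adam19 (0.12), Reep6 (0.13) and Plekhg1 (0.16), and nearest to Gal3st1 were Gas2 (0.063), Ipp (0.063) and Narf (0.069). These likenesses rest on 4 values per gene that share their control libraries and describe those values only.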

How the data were processed

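Whole spinal cord RNA of 21 mice was sequenced. The deposited per-library values are normalized scaled reads per base for 25127 genes, a coverage signal; the submitters' processing notes name kallisto 0.43.0, sleuth 0.28.1 and GRCm38. Library sums of these values were 26908290 to 29206779 at P21 and 12488935 to 13798772 at P60; read depth is unknown, as the values are not counts. The authors' deposited tables hold effects on a natural log scale with p-values and q-values, converted here to log2; they were used for the authors' own test and for gene symbols. The mean values of all 9 enzymes were equal in both kinds of file to within 1e-06.

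Values were analysed as log2(value + 0.5) with limma 3.58.1 (trended variance, 3 genotypes of an age together) in R 4.3.3, for genes with at least 5 in 4 libraries (P21) or 3 (P60), after a check on simulated data. Age differences were interaction contrasts over 6 groups. Ratios were tested by exact permutation. Replicate numbers follow accession order; p-values measure the spread between mice. Alternatives were another pseudocount, filter or scaling, only the groups compared, sex as a covariate (P21 only), the authors' test and leaving out each library.

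The enzymes and lists were chosen with earlier results of these data known. All 9 enzymes are named, and of each further list up to 4 called genes with the smallest p in cKO against cHET at P21 and up to 2 at P60. A few genes that this rule names are not reported here. Gene positions come from GENCODE M21, promoters from RefSeq (GRCm38.p6).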

Additional observations from a re-analysis of the deposited data

Results flagged for a closer look

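The fall of Fa2h in cKO cords differed between the ages by -0.59 (log2, P60 minus P21) against cHET and by -0.50 against control, both past the threshold of the limma interaction test. Age, library kit and sex cannot be told apart in it, since the P21 groups hold both sexes, P60 cKO and cHET cords are all male and P60 control cords all female, and with any 1 library left out it ranged from -0.64 to -0.52 against cHET and from -0.55 to -0.42 against control. In 27 gene-by-group sets of 4 P21 libraries, 2 single values stood far from the other 3, where chance gives about 1 in 20. Kdsr read 674 in P21 control replicate 4, with the other controls at 852 to 867. Degs1 read 4416 in P21 cHET replicate 3, with the other cHET cords at 4898 to 4944.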

How the results depend on the processing

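The falls of Ugt8a, Fa2h and Gal3st1 in cKO against cHET cords at both ages passed the threshold under every alternative tried. So did those of Ugt8a and Fa2h against control at both ages. Sex as a covariate was tried only at P21, because at P60 each group held 1 sex. The P60 falls against control were therefore not adjusted for sex. No called change reversed. Uncalled changes near 0 did take either sign when libraries were left out: in cKO against cHET, Degs1 ranged from -0.05 to 0.03 at P21 and from -0.06 to 0.03 at P60, Kdsr from -0.03 to 0.11, Sgms1 from -0.15 to 0.02 and Cers2 from just below 0 to 0.11 at P21, and Sptlc1 from -0.04 to 0.04 at P60. With quantile normalization 5 enzymes, not 3, were called in cKO against cHET at P60 and 5, not 3, in cKO against control at P21; the additions were Kdsr and Sptlc2 in the first and Kdsr and Sptlc1 in the second. It called 4, not 3, in cKO against cHET at P21 through Sptlc1 (adjusted p = 0.047, limma) and 4, not 3, in cKO against control at P60 through Kdsr (0.023). A stricter filter or median-of-ratios scaling called 4, not 3, in cKO against cHET at P60 through Kdsr. Quantile normalization also moved the share of called genes that rose to 46.8%, against 55.8%, in cKO against cHET at P21, and to 46.1%, against 53.8%, at P60, with medians over all genes of -0.06 and -0.05; the cause was not tested. When each library was left out in turn, the number of enzymes called was 3 throughout in cKO against cHET at both ages, 3 to 4 and 2 to 3 in cKO against control at P21 and P60, 0 in cHET against control, and for the age difference 1 against cHET and 1 to 2 against control, the 2 arising without P21 cKO replicate 3 through Ugt8a. Gal3st1 at P60 in cKO against cHET reached an adjusted p of 0.044 at most. Kdsr against control at P21 passed without cKO replicate 2 (adjusted p = 0.049) or control replicate 4 (0.017), with limma. No paired analysis was possible because the labels give no replicate numbers shared between groups. With 3 or 4 mice a group, log2 changes with a standard error near 0.1 limit what could be called among the enzymes of the backbone.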
